A study of Mus musculus with 10 samples.

Results

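The secondary granule and calprotectin genes described here are 10 genes whose proteins are stored in the granules or cytosol of neutrophils, namely Camp, Ngp, Ltf, Lcn2, S100a8, S100a9, Mmp8, Mmp9, Retnlg and Cd177. They were found by gene symbol in all 10 gene tables, as 10 of 24421 symbols. The list was chosen by how measured levels of these genes compared across all 3 groups in the same libraries, so the differences between groups below are a description and carry no test. All 10 were at 1 TPM (transcripts per 1000000 transcripts) or more in at least 3 libraries and entered the fit across 12938 genes. Mmp9 reached 1 TPM in only 3 libraries, and Retnlg, Camp and Ltf did so in no or only 1 library of WT mice after MI.

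Splenic Ly6C-high monocytes were collected on day 5 after surgery from male mice aged 8 to 10 weeks. WT C57BL/6 mice underwent sham surgery (3 libraries, replicates 1, 2 and 3) or permanent ligation of the left anterior descending artery (MI; 3 libraries, replicates 2, 3 and 4). Foxp3DTR mice, in which the Foxp3 promoter drives the human diphtheria toxin receptor, underwent MI (4 libraries, replicates 1 to 4). Diphtheria toxin (DTX) depletes their Foxp3-expressing regulatory T-cells (Tregs), though only in part, as the study reports for the spleen and other lymphoid organs. The ablation protocol gives 500 ng DTX on days 2 and 1 before the operation and 250 ng on day 2 after it. The study describes the WT mice set against Foxp3DTR mice after MI as toxin-treated too, whereas the labels give no toxin per library and hold 1 WT MI group. The protocol covers both MI and sham operations, but no toxin is named for the sham mice whose monocytes were sequenced. Genotype and Treg depletion cannot be told apart. There was no sham-operated Foxp3DTR group. After magnetic depletion of lymphocytes, the sort kept cells with CD11b, CD115, F4/80 and high Ly6C and without Ly6G, and 20 to 50 pg of RNA went into each library. Each library was taken as 1 animal, and errors measure the spread between these libraries.

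Neutrophil precursors make granule proteins in waves. Azurophil (primary) granule proteins come first, in promyelocytes. The proteins of secondary granules (lactoferrin, the cathelicidin Camp, Ngp, lipocalin-2 and collagenase Mmp8) follow in myelocytes and metamyelocytes, under the control of C/EBP factors, and gelatinase (Mmp9) is stored later in tertiary granules. S100a8 and S100a9 are cytosolic calcium-binding proteins that pair to form calprotectin. They are abundant in neutrophils and also made by classical monocytes. In the spleen, Ly6C-high monocytes share granulocyte-monocyte progenitors with neutrophils, and extramedullary myelopoiesis after MI takes place there.

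Of the 10 genes, 3 are close to each other on chromosome 9 (mm10). Camp lies at chr9:109847377-109849456, Ngp 570.4 kb further on at chr9:110419808-110423012 and Ltf another 596.3 kb away at chr9:111019292-111042766. S100a8 (chr3:90669071-90670034) and S100a9 (chr3:90692630-90695721) face each other on opposite strands with 22.6 kb between them. The others are at chr2:32384637-32387739 (Lcn2), chr9:7558429-7568486 (Mmp8), chr2:164948219-164955849 (Mmp9), chr16:48872608-48874498 (Retnlg) and chr7:24743983-24760311 (Cd177). The chromosome 9 trio and the calprotectin pair were among the genes higher in all Foxp3DTR than in all WT MI libraries, and Cd177 was not. Shown for these 6 genes, chosen with their levels known, are the 250 bases before the annotated start. They are RefSeq sequences of GRCm38.p6, written 5′ to 3′ on the gene's strand. Capitals mark matches to a C/EBP-type motif (TTGCNNAA, both strands), a PU.1-type motif (GAGGAA, both strands) and a TATA-type motif (ATAAA, gene strand only), of which the last was added after the sequences had been read.
Camp (chr9:109849457-109849706, minus strand): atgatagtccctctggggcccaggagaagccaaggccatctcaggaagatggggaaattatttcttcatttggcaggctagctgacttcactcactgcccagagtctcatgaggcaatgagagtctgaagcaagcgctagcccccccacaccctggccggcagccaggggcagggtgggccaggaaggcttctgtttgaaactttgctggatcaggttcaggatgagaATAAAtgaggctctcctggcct
Ngp (chr9:110419558-110419807, plus strand): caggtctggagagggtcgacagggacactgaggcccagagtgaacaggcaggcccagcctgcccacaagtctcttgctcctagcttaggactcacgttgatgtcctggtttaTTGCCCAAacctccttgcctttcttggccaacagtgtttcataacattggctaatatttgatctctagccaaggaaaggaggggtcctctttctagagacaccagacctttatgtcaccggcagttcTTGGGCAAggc
Ltf (chr9:111019042-111019291, plus strand): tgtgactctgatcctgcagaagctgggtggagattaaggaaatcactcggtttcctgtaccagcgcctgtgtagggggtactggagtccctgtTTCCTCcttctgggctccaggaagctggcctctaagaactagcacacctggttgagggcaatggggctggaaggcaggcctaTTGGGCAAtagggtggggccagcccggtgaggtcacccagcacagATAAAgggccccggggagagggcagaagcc
S100a8 (chr3:90668821-90669070, plus strand): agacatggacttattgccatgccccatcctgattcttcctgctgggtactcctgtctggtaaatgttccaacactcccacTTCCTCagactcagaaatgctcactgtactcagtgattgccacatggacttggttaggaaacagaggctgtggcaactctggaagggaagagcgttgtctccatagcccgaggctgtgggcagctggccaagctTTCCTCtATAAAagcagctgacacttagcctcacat
S100a9 (chr3:90695722-90695971, minus strand): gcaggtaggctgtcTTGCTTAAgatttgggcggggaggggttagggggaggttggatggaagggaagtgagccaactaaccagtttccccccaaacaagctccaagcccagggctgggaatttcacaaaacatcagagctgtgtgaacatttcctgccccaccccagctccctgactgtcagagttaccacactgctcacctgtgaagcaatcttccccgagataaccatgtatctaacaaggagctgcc
Cd177 (chr7:24760312-24760561, minus strand): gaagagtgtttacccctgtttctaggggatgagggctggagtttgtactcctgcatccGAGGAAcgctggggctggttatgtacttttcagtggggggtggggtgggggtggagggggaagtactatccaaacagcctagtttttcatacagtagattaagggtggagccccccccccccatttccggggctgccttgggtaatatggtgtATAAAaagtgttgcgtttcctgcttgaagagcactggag

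RefSeq gave a start for 9 of the 10 genes, Mmp9 being the exception. The C/EBP-type motif was found in 6 of the 9 (Ngp, Ltf, Lcn2, S100a9, Mmp8 and Retnlg), against 9.56% of all 32851 promoters of this length. Ngp held 2 copies, whose first bases were 138 and 11 bases before the start. Ltf held 1, at 75 bases before the start, while Camp, S100a8 and Cd177 held none in this window. The PU.1-type motif was in 5 of 9 (Lcn2, S100a8, Cd177, Mmp8 and Ltf) against 23.3% of all promoters. The TATA-type motif was also in 5 of 9 (Lcn2, S100a8, Cd177, Camp and Ltf) against 24.0%, at 29 bases before the start in S100a8, 30 in Ltf and 22 in Camp. No 2 of these motifs overlapped in the sequences shown. Cd177 held PU.1-type and TATA-type matches, as S100a8 and Ltf did. Whether any match bears on the levels was not tested. The matches are descriptions of sequence and not of factor binding.

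The libraries held 3.13 to 8.40 M reads (M, 1000000 reads), as implied by their coverage and FPKM. The labelled cell type had its markers, with Ly6c2 at 1498 to 4757 TPM, Ccr2 at 906 to 1749 TPM and Csf1r at 519 to 933 TPM. Ly6g, the gene of the antigen used to gate neutrophils out, has no entry in the tables used here. Sham library 3 stood apart from the other sham libraries. Its 12 T cell markers summed to 193 TPM, against 23.0 and 38.6 TPM in sham libraries 1 and 2, and its 9 erythroid markers to 307 TPM against 9.95 and 58.6 TPM. Differences from sham are therefore given with and without it. Across all 12938 genes, 0.688% passed an adjusted p of 0.05 in limma with higher and 0.433% with lower levels in Foxp3DTR MI than in WT MI, which is 89 and 56 genes with scaling to the median gene and 488 and 39 without it. Between WT MI and sham the share called was 0.0% in each direction (limma, 0 of 12938, with 600 at an unadjusted p under 0.05), and between Foxp3DTR MI and sham it was 0.386% higher and 0.155% lower.

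Together the 10 genes made up 1268, 2240, 1660 and 2591 TPM in Foxp3DTR mice (replicates 1 to 4). In WT mice after MI they summed to 472, 236 and 414 TPM (replicates 2, 3 and 4). After sham surgery the sums were 536, 434 and 1442 TPM (replicates 1, 2 and 3). All 4 Foxp3DTR libraries were above the WT MI libraries, and sham library 3 was within the Foxp3DTR range. The makeup of the sum differed as well. Mmp8 and Cd177 took 47.4, 83.2 and 66.3% of it in WT mice after MI and 26.0, 9.91, 22.3 and 13.6% in Foxp3DTR mice. Without this pair, the other 8 genes summed to between 39.6 and 248 TPM in the WT MI libraries and between 939 and 2240 TPM in the Foxp3DTR libraries. In these bulk samples, fewer cells that carry a transcript and less of it per cell cannot be told apart.

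**Figure D1:**
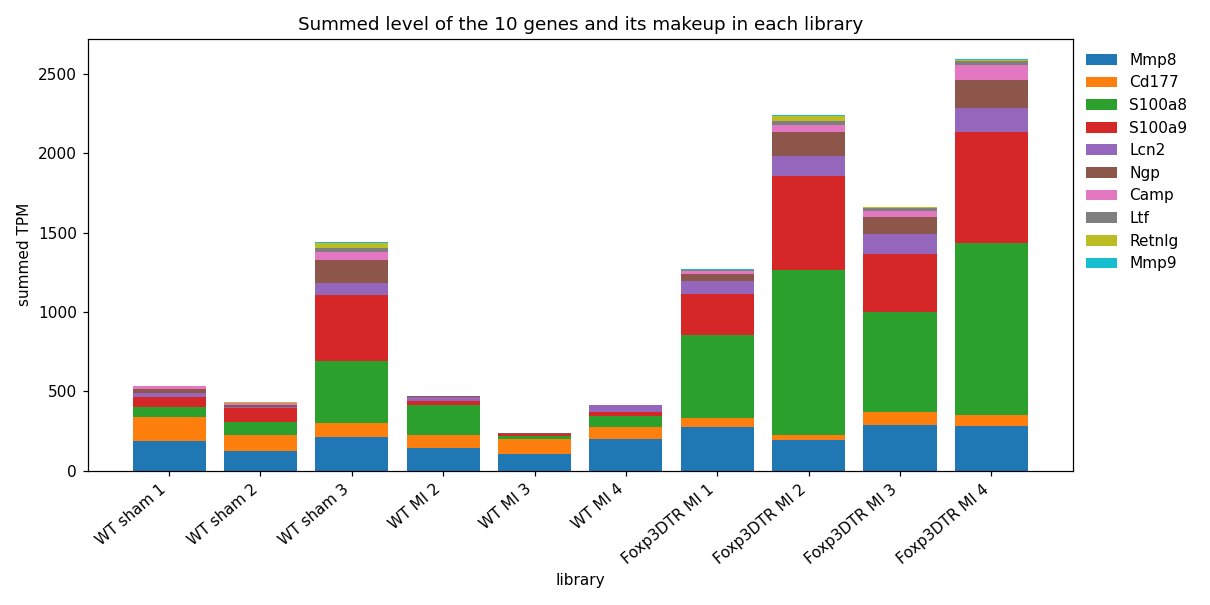
Stacked bars of TPM of the 10 genes in each library, in summed TPM on a linear axis from 0, with the colours standing for the genes. Mmp8 and Cd177 fill 47.4 to 83.2% of the bar in the 3 WT MI libraries, and S100a8 and S100a9 fill 59.8 to 73.1% in the 4 Foxp3DTR libraries.

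Camp encodes the cathelicidin antimicrobial peptide precursor. It was at 15.03, 49.7, 36.7 and 96.2 TPM in Foxp3DTR mice, at 1.298 TPM in WT MI library 2 and listed at 0 in WT MI libraries 3 and 4. After sham surgery it stood at 17.5, 12.1 and 45.8 TPM. Every sham and Foxp3DTR library was above every WT MI library, while sham and Foxp3DTR libraries overlapped. On the log2(scaled TPM + 1) scale, on which all differences below are given, Foxp3DTR MI exceeded WT MI by 4.86 ± 0.63 (SE, n = 4 and 3). In the fit of all 10 libraries, each SE comes from 1 spread shared by the 3 groups and drawn towards that of genes of similar level. The SE between the MI groups thus includes the spread of the sham libraries, sham library 3 among them. Adding 1 TPM understates the change of low genes, and the size of the Camp difference depends on that choice, with 7.25 at 0.1 TPM and 3.01 at 5 TPM. The WT MI level of Camp rests on the equivalent of about 2.3 reads in 1 library, while Foxp3DTR libraries held about 24.7 to 171.9.

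Ngp, the neutrophilic granule protein, is a cathelin-domain relative of Camp. In Foxp3DTR mice it was at 44.6, 148, 110 and 177 TPM, and in WT mice after MI at 3.19, 2.63 and 2.01 TPM. Sham libraries held 27.6, 10.98 and 150 TPM. Unlike Camp it was detected in all 3 WT MI libraries, each of them below all others, and the Foxp3DTR MI group exceeded WT MI by 4.71 ± 0.73. Ngp exceeded Camp in 9 of 10 libraries and was 1.84 to 3.00 times as abundant as Camp in the Foxp3DTR group. In sham libraries the same ratio ran from 0.905 to 3.27.

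Ltf encodes lactoferrin, the iron-binding protein by which secondary granules are commonly recognised. Foxp3DTR libraries were at 5.12, 23.1, 15.7 and 21.7 TPM. WT MI library 2 was at 0.284 TPM, and Ltf was listed at 0 in WT MI libraries 3 and 4. After sham surgery it was at 1.24, 1.78 and 25.0 TPM, so that sham libraries 1 and 2 were below, and sham library 3 above, all Foxp3DTR libraries. The difference between Foxp3DTR and WT mice after MI was 3.72 ± 0.77.

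Lcn2 encodes lipocalin-2, which withholds iron from bacteria by binding their siderophores and is also made outside neutrophils. It was at 82.7, 124, 127 and 148 TPM in Foxp3DTR mice. WT mice after MI had 27.4, 4.53 and 43.6 TPM and sham-operated mice 21.2, 6.23 and 72.0 TPM. Both WT groups were below all Foxp3DTR libraries, sham library 3 included. Foxp3DTR MI exceeded WT MI by 2.40 ± 0.80. In contrast with Camp, Ngp and Ltf, its WT MI and sham ranges overlapped. The ratio of Lcn2 to Ngp was 0.481 to 0.770 after sham surgery, 1.72 to 21.7 in the WT MI libraries and 0.835 to 1.85 in the Foxp3DTR libraries, the WT MI range overlapping that of Foxp3DTR mice.

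S100a8, the smaller subunit of calprotectin, was the most abundant of the 10 genes in Foxp3DTR mice, with 525, 1044, 632 and 1082 TPM. WT mice after MI had 189, 20.0 and 67.4 TPM. Sham libraries held 60.7, 82.5 and 387 TPM. All 4 Foxp3DTR libraries were above both WT groups, and the WT groups overlapped. In rank among all symbols of a library, S100a8 was between positions 73 and 220 in Foxp3DTR mice, between 737 and 6457 in WT mice after MI and between 281 and 2986 after sham surgery. The Foxp3DTR MI group exceeded WT MI by 3.35 ± 0.76.

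S100a9, its partner, was at 260, 592, 362 and 703 TPM in Foxp3DTR mice and at 26.7, 12.4 and 26.6 TPM in WT mice after MI. After sham surgery the values were 66.9, 87.8 and 419 TPM. Here the WT MI libraries were all below the sham libraries, which S100a8 did not show. The difference between Foxp3DTR and WT mice after MI was 4.12 ± 0.60.

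The balance of the calprotectin pair differed between the groups. S100a8 was at 0.907, 0.940 and 0.923 times the level of S100a9 in the sham libraries, a narrow range that sham library 3 shared. In WT mice after MI the ratio was 7.10, 1.62 and 2.54, and in Foxp3DTR mice 2.02, 1.76, 1.75 and 1.54. All 7 libraries after MI were thus above all 3 sham libraries, and WT MI and Foxp3DTR MI ranges overlapped. The S100a9 values of the WT MI libraries rest on about 18.4 to 32.0 reads. The genes flanking the pair in the tables, S100a7a and Pglyrp4, were below the filter, at 0 to 1.34 TPM and listed at 0 in all libraries.

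**Figure D2:**
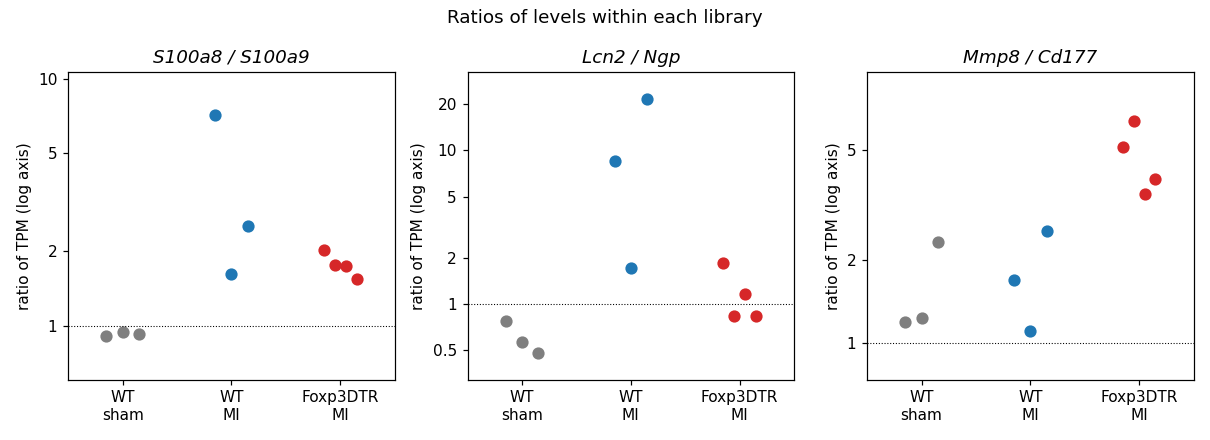
Ratio of TPM of 2 genes within each library, on log axes, for S100a8 to S100a9, Lcn2 to Ngp and Mmp8 to Cd177; each point is 1 library and the dotted line marks a ratio of 1. The 3 sham libraries lie at 0.907 to 0.940 for the calprotectin pair, below the 7 libraries after MI, and Mmp8 to Cd177 lies at 3.47 to 6.37 in the 4 Foxp3DTR libraries, above the other 6.

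Mmp8 encodes neutrophil collagenase. It was abundant in every group, at 276, 192, 288 and 280 TPM in Foxp3DTR mice, 141, 103 and 197 TPM in WT mice after MI and 184, 124 and 211 TPM after sham surgery. Foxp3DTR library 2 was below WT MI library 4 and sham library 3, so that the groups overlapped. The difference between Foxp3DTR and WT mice after MI was 0.60 ± 0.27. Mmp9, the gelatinase of tertiary granules, was the least abundant gene of the 10 in sham and Foxp3DTR libraries on average. It was at 0.785, 3.50, 1.07 and 0.842 TPM in Foxp3DTR mice, listed at 0 in WT MI libraries 2 and 4 and at 0.0943 TPM in WT MI library 3, and at 0.565, 0.256 and 4.66 TPM after sham surgery. Its Foxp3DTR values correspond to about 5.4 to 26.0 reads. Both matrix-degrading enzymes are counted among neutrophil granule proteins, yet Mmp8 exceeded Mmp9 in TPM in all 10 libraries.

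Retnlg, a resistin-like secreted protein of mature mouse neutrophils, was at 5.41, 32.3, 5.58 and 9.86 TPM in Foxp3DTR mice and at 1.41, 7.89 and 36.8 TPM after sham surgery. It was listed at 0 in all 3 WT MI libraries, so no fold against that group is given. Sham and Foxp3DTR libraries overlapped over nearly their whole range.

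Cd177 encodes a surface glycoprotein that is also found in granules of neutrophils and binds Pecam1. It was at 54.0, 30.1, 83.0 and 71.6 TPM in Foxp3DTR mice, 83.2, 93.5 and 77.6 TPM in WT mice after MI and 155, 101 and 90.7 TPM after sham surgery. All Foxp3DTR libraries were below all sham libraries, and Foxp3DTR library 3 overlapped WT MI in TPM as deposited but not after scaling. The difference between Foxp3DTR and WT mice after MI was -0.83 ± 0.33, the one negative value among the 10. The ratio of Mmp8 to Cd177 was 3.47 to 6.37 in Foxp3DTR mice, above the 1.10 to 2.54 of all WT libraries.

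**Figure D3:**
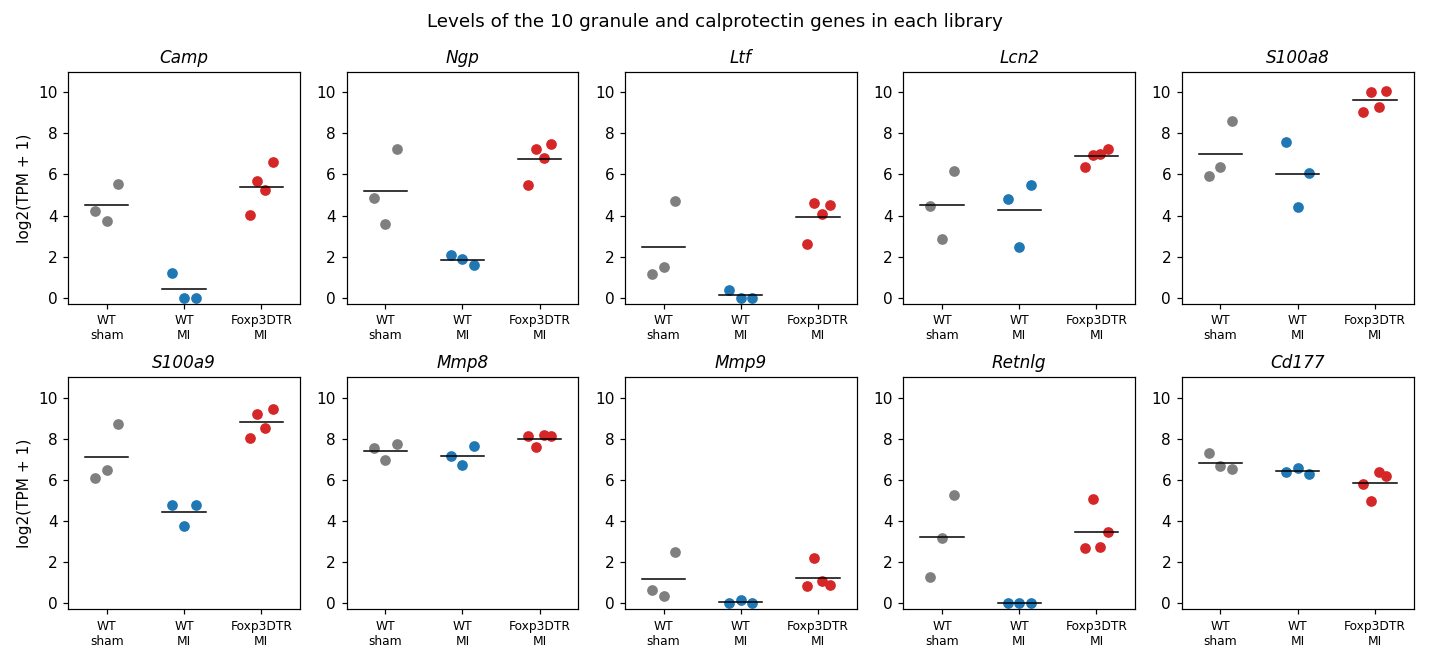
Level of each gene as log2(TPM + 1) of the deposited TPM, 1 panel per gene, with 1 point per library and a bar at the group mean. Camp, Ngp, Ltf, Retnlg and S100a9 lie lowest in the 3 WT MI libraries, whereas Mmp8 and Cd177 are high in all 3 groups.

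In the order of mean levels, Mmp8, S100a8 and Cd177 led in WT mice after MI, at 147, 92.2 and 84.8 TPM. Lcn2 and S100a9 followed at 25.2 and 21.9 TPM, then Ngp at 2.61 TPM. S100a8, S100a9 and Mmp8 led in Foxp3DTR mice at 821 ± 284, 479 ± 204 and 259 ± 44.9 TPM (SD, n = 4), followed by Lcn2 at 121 ± 27.4 TPM and Ngp at 120 ± 57.4 TPM. In sham libraries S100a9, S100a8 and Mmp8 were on top at 191, 177 and 173 TPM. Neighbours in these orders mostly did not differ beyond their ranges, which overlapped in 9 of 9 neighbouring pairs after sham surgery, 6 of 9 in WT mice after MI and 7 of 9 in Foxp3DTR mice. The WT MI order had gaps below Cd177, below S100a9 and below Ngp, and the Foxp3DTR order below Mmp8 and below Retnlg.

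Between Foxp3DTR and WT mice after MI, 9 of 10 differences were positive and 1 was negative. The median was 3.37 over the 10 genes and 3.35 over the 9 that were not listed at 0 in a whole group, beside 0.00 over all 12938 genes, 5% of which were above 0.81. Groups did not overlap, with Foxp3DTR higher, in 8 of the 10 genes (scaled values), a pattern found in 9.97% of all genes. Cd177 was the 1 member with all Foxp3DTR libraries lower, as were 9.02% of all genes. The adjusted p was under 0.05 in 3 of the 10 (Camp, Ngp and S100a9), all higher, against the 0.688% above. This count was 0 without WT MI library 2, WT MI library 3 or Foxp3DTR library 3, 1 without Foxp3DTR library 2, 2 without WT MI library 4 or Foxp3DTR library 4, 5 without sham library 1 and 6 without sham library 3. As these contrasts chose the genes, nothing further is read from the counts.

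**Figure D4:**
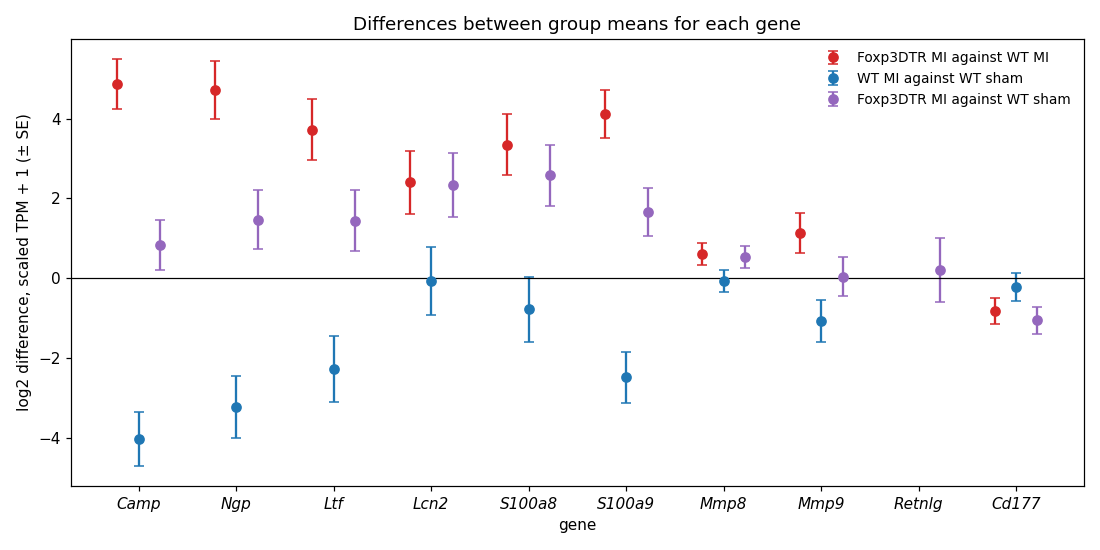
Difference between group means for each gene on the log2(scaled TPM + 1) scale, with error bars of 1 SE from limma, for the 3 contrasts in 3 colours. Retnlg has no point in the 2 contrasts with WT MI, where it was listed at 0. Foxp3DTR MI against WT MI lies between 3.35 and 4.86 for Camp, Ngp, Ltf, S100a8 and S100a9 and at -0.83 for Cd177.

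Comparing WT mice after MI with sham surgery sets infarct against sham in mice with undepleted Tregs. Toxin may differ between these groups too, as the labels do not give it. All 10 fitted differences were negative, with a median of -1.68, and -1.08 over the 9 genes not listed at 0 in a whole group. Camp differed by -4.03 ± 0.67, Ngp by -3.24 ± 0.78, S100a9 by -2.48 ± 0.64 and Ltf by -2.28 ± 0.82. Those of Lcn2 (-0.08 ± 0.85), Mmp8 (-0.07 ± 0.28), Cd177 (-0.23 ± 0.35) and S100a8 (-0.78 ± 0.81) were smaller than, or close to, their SE. Without sham library 3, Camp stood at -3.51 ± 0.69, Ngp at -2.25 ± 0.56, S100a9 at -1.69 ± 0.48 and Ltf at -1.18 ± 0.55, while Lcn2, S100a8 and Mmp8 turned to 0.74, 0.01 and 0.07. WT MI libraries were all below all sham libraries for 6 of the 10 (Camp, Ngp, Ltf, S100a9, Mmp9 and Retnlg), a pattern shared by 3.73% of all genes, and above all of them for 0 of the 10 against 3.18%. None of the 10 passed the adjusted threshold in limma, where 5 had an unadjusted p under 0.05.

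Foxp3DTR mice after MI differed from sham-operated WT mice in genotype, Treg depletion and surgery at once, and possibly in toxin. The differences were 2.58 ± 0.76 for S100a8 and 2.33 ± 0.80 for Lcn2. S100a9, Ngp and Ltf followed at 1.65 ± 0.60, 1.47 ± 0.73 and 1.44 ± 0.77. Camp was at 0.83 ± 0.63, Retnlg at 0.20 ± 0.81 and Mmp9 at 0.04 ± 0.50, within about 1 SE of 0 or little above it. Cd177 was at -1.06 ± 0.33. Lcn2 and S100a8 were the 2 genes with all Foxp3DTR libraries above all sham libraries (9.8% of all genes), and Cd177 was the 1 gene below (8.44% of all genes). Leaving out sham library 3 raised S100a8 to 3.36 ± 0.71, Lcn2 to 3.14 ± 0.76, Ltf to 2.54 ± 0.52, Ngp to 2.46 ± 0.53 and S100a9 to 2.44 ± 0.46. It also took the members past the adjusted threshold from 0 to 5, while the calls over all genes went from 50 higher and 20 lower to 412 and 224. The 3 contrasts share libraries and are not independent of each other.

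Within the sham and Foxp3DTR groups, 1 library each stood at one end for most of the genes. Sham library 3 was the highest sham library for 9 of the 10 and the lowest for Cd177. Foxp3DTR library 1 was the lowest of its group for 8 of the 10, Mmp8 and Cd177 excepted. In WT mice after MI the genes split, with library 2 highest for 5 (Camp, Ngp, Ltf, S100a8 and S100a9), library 4 for Lcn2 and Mmp8, library 3 for Mmp9 and Cd177, and Retnlg at 0 in all. Over the 10 libraries, Pearson's r of each gene with the mean z-score of the other 9 was 0.97 for S100a9, 0.96 for Ngp and Ltf, 0.91 for Camp, 0.85 for S100a8, 0.81 for Retnlg, 0.77 for Lcn2, 0.75 for Mmp9, 0.61 for Mmp8 and -0.55 for Cd177. Without sham library 3 (9 libraries) the values were 0.98 for S100a9, 0.96 for Ngp, 0.88 for S100a8 and -0.62 for Cd177. These coefficients describe libraries that fall into 3 groups and share their scaling.

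Among all other tested genes, the 8 most like the mean profile of the 10 over the 10 libraries were Gzmb, Cd96, Themis and Osbpl5 (r = 0.945 each), Cd8b1 (0.941), Cxcr2 (0.940), Ets1 (0.937) and S1pr1 (0.936). Gzmb encodes granzyme B of cytotoxic lymphocytes, and Cd96, Themis and Cd8b1 are T and NK cell genes. Cxcr2 is the chemokine receptor of mature neutrophils. Gzmb was at 1.09 to 2.37 TPM in WT mice after MI, 18.4 to 60.5 TPM in Foxp3DTR mice and 2.29 to 43.3 TPM after sham surgery. The mean of each of the 8 genes was lowest in WT MI and highest in Foxp3DTR MI, an order that their choice by likeness to the 10 genes brings with it. The 12 T cell markers summed to 16.7 to 21.2 TPM in WT mice after MI, 48.8 to 162 TPM in Foxp3DTR mice and 23.0 to 193 TPM after sham surgery. All 12 had a positive difference between Foxp3DTR and WT mice after MI (median 1.74), of which 0 passed the adjusted threshold in limma, and none was listed at 0 in a whole group. Cd4, Cd6, Cd8a and Cd28 met the filter only with the Foxp3DTR libraries counted. Sums of NK cell, erythroid, basophil and plasma cell markers were also lower in all WT MI than in all Foxp3DTR libraries. NK cell markers summed to 23.8 to 61.6 TPM in the WT MI libraries and 78.0 to 169 TPM in the Foxp3DTR libraries, with Klra4 listed at 0 in both. Gzma (7.14 to 20.9 TPM and 37.3 to 77.5 TPM) and Nkg7 (7.11 to 11.6 TPM and 21.9 to 56.9 TPM) carried the higher sum. Prf1 and Eomes differed by 1.16 ± 0.48 and 1.03 ± 0.31. Differences were 0.42 ± 0.40 for Ncr1, 0.38 ± 0.30 for Klrb1c and -0.81 ± 0.75 for Klra8. Erythroid markers summed to 6.49 to 15.9 TPM and 16.1 to 49.3 TPM, and those of basophils and mast cells to 0.881 to 4.97 TPM and 6.75 to 36.8 TPM. Plasma cell markers summed to 318 to 403 TPM and 481 to 584 TPM, most of it Xbp1, which was at 308 to 398 TPM and 397 to 459 TPM (0.03 ± 0.15) and is not confined to plasma cells. Jchain was at 3.70 to 12.5 TPM and 30.5 to 106 TPM (2.51 ± 0.97), and Mzb1 and Tnfrsf17 were listed at 0 in WT MI. Other lists did not separate the groups this way. B cell markers summed to 13.8 to 19.0 TPM and 10.8 to 18.6 TPM (Pax5 at 0 in WT MI), those of platelets to 17.4 to 22.5 TPM and 15.4 to 28.8 TPM, and those of eosinophils to 0.213 to 1.63 TPM and 1.57 to 6.28 TPM (Prg2 and Ear6 at 0 in WT MI). Dendritic cell markers summed to 46.6 to 69.1 TPM and 21.4 to 37.9 TPM, but 4 of the 7 had a positive difference (median 0.08). Flt3 (-1.86 ± 0.45) and Cd209a (-1.43 ± 0.56) carried the lower sum. Red pulp macrophage markers summed to 202 to 287 TPM and 164 to 233 TPM, mostly Hmox1 (160 to 226 TPM and 118 to 141 TPM). In all these lists, Cd79b of B cells was the 1 gene called, which fell by 0.78 ± 0.16 against WT MI (limma, adjusted p = 0.0496). The part of other cells' RNA in the granule gene levels was not tested.

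**Figure D5:**
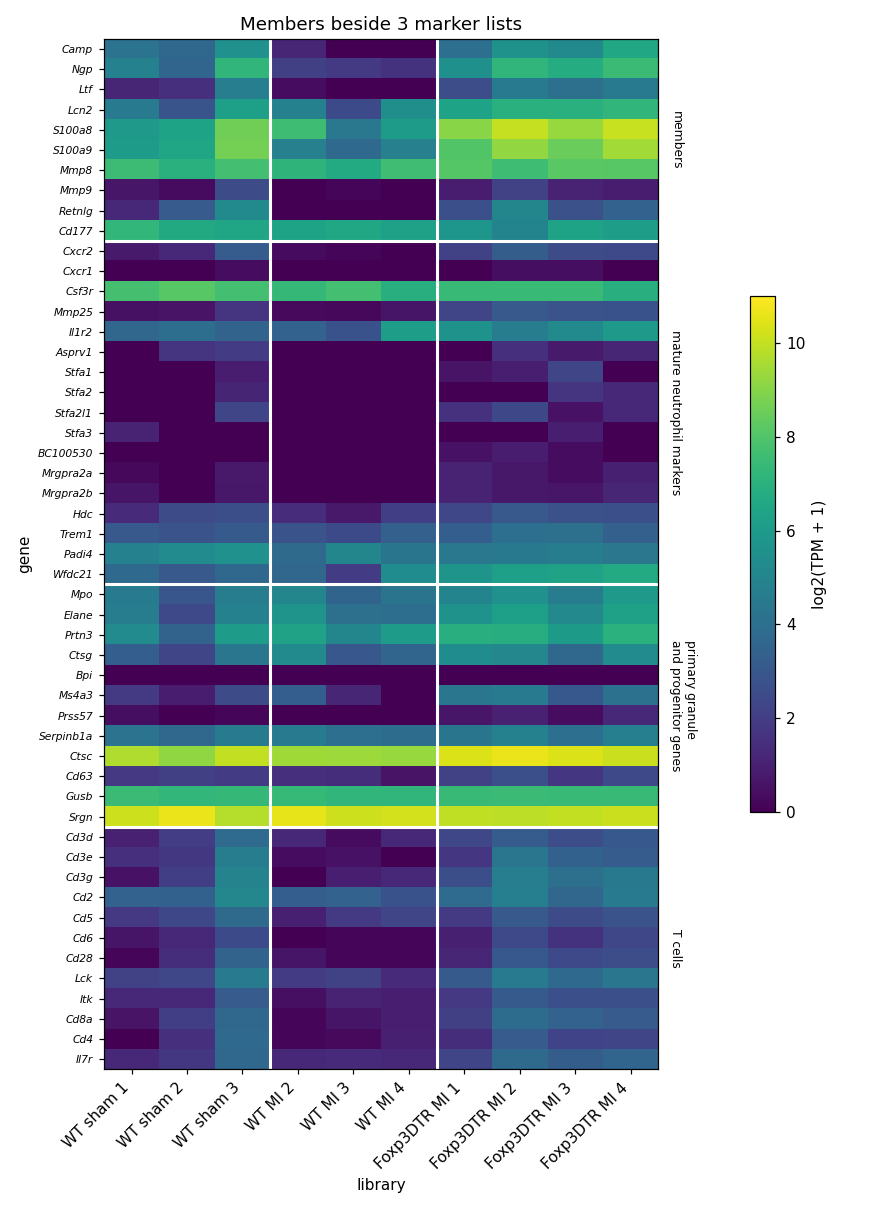
Heat map of log2(TPM + 1) in the 10 libraries for the 10 genes, 17 mature neutrophil markers, 12 primary granule and progenitor genes and 12 T cell markers; colour runs from 0 (dark) to 11 (bright) and white lines part groups and lists. Most T cell and mature neutrophil markers are darkest in the WT MI libraries, while Csf3r, at 120 to 280 TPM, is bright in all libraries.

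Mature neutrophil markers other than the 10 genes were mostly low. The tables held 17, of which 11 were tested, with 9 of 11 positive between Foxp3DTR and WT mice after MI (median 1.00). Mmp25, a membrane-anchored metalloproteinase of neutrophils, was the 1 that rose, by 2.21 ± 0.33 (limma, adjusted p = 0.0200). It was at 3.85 to 7.35 TPM in Foxp3DTR mice and 0.186 to 0.556 TPM in WT mice after MI. Cxcr2 was at 3.31 to 8.34 TPM against 0 to 0.255 TPM, a difference of 2.32 ± 0.49 (limma, adjusted p = 0.0516). Mmp25, Cxcr2, Asprv1, Stfa2 and Stfa2l1 met the filter of 1 TPM in 3 libraries only with the Foxp3DTR libraries counted. Their tests are descriptions only. Asprv1, Stfa2 and Stfa2l1 were listed at 0 in WT MI, so their positive signs were fixed in advance. Nothing is therefore read from the 9 of 11 or from the median. In WT mice after MI 9 markers were listed at 0 in all 3 libraries (Cxcr1, Asprv1, Stfa1, Stfa2, Stfa2l1, Stfa3, BC100530, Mrgpra2a and Mrgpra2b), where Camp was at or near 0 too. In the 4 Foxp3DTR libraries, against 3 in WT MI, none of the 17 was at 0 throughout. The 9 markers were still low there, at no more than 4.16 TPM (Stfa2l1). Cxcr1 was at 0 to 0.342 TPM and Stfa3 at 0 to 0.917 TPM. The list summed to 203 to 260 TPM in WT mice after MI, 315 to 360 TPM in Foxp3DTR mice and 280 to 355 TPM after sham surgery, with Csf3r as its most abundant gene in every library. Csf3r, the G-CSF receptor, was at 120 to 177 TPM in Foxp3DTR mice and 122 to 208 TPM in WT mice after MI, a difference of -0.27 ± 0.17 (adjusted p = 0.447, limma).

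Wfdc21, Il1r2 and Lrg1, picked after their values were seen, had the same order as Lcn2 over the WT MI libraries. Wfdc21 was at 11.5, 2.83 and 39.4 TPM there, Il1r2 at 9.99, 5.93 and 68.1 TPM and Lrg1 at 15.7, 6.23 and 93.2 TPM, with the highest value in library 4 and the lowest in library 3 in each case. Camp, Ngp and Ltf were highest in library 2. Mmp8, Vcan, Chil3, Hp, Trem1, Hdc and Fpr1 also had the order of Lcn2, so it was not particular to the genes picked. How many of all genes share this order was not counted.

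Other genes of secondary and tertiary granules had no common direction. Of 17 tested, 10 were positive and 7 negative between Foxp3DTR and WT mice after MI (median 0.20), and none passed the test in any contrast. The lowest p was that of Fcnb, a ficolin of the lectin complement pathway, which was at 9.60 to 17.6 TPM in Foxp3DTR mice and 2.27 to 4.75 TPM in WT mice after MI (1.35 ± 0.30, limma, adjusted p = 0.0590). Ceacam1 differed by -0.41 ± 0.16 (limma, adjusted p = 0.214). Primary granule and progenitor genes had 8 of 10 positive (median 0.73), with none past the threshold. Ctsc, the protease that activates granule serine proteases, was at 1120 to 1620 TPM in Foxp3DTR mice and 625 to 682 TPM in WT mice after MI (0.80 ± 0.17, limma, adjusted p = 0.0516). Ms4a3, a membrane protein of granulocyte-monocyte progenitors, was at 7.07 to 21.3 TPM against 0 to 8.72 TPM (2.35 ± 0.70, limma, adjusted p = 0.126). Mpo and Elane, myeloperoxidase and neutrophil elastase, were at 10.7 to 32.0 and 14.7 to 51.4 TPM in WT mice after MI, where Camp and Ltf were near 0. Their differences were 0.76 ± 0.49 and 1.01 ± 0.59 (limma, adjusted p = 0.448 and 0.405).

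Transcription factors of granulocyte and monocyte fate, 12 tested, had none past the threshold in any contrast. Cebpe, which is needed for secondary granule formation, was low throughout, at 1.61 to 1.88 TPM in WT mice after MI, 3.66 to 6.07 TPM in Foxp3DTR mice and 0.740 to 3.12 TPM after sham surgery. Its difference between the MI groups was 0.85 ± 0.30 (limma, adjusted p = 0.183). Ets1 (2.15 ± 0.58, adjusted p = 0.101) and Cebpb (-1.27 ± 0.43, adjusted p = 0.168) had the lowest p in limma. Other S100 genes, 7 tested, had none past the threshold either. S100a4 and S100a6 stood at 1195 to 1756 and 835 to 1106 TPM in all libraries, with differences of -0.40 ± 0.20 and -0.02 ± 0.13 between the MI groups (limma, adjusted p = 0.318 and 0.941). S100a11 (0.44 ± 0.16) and S100a10 (0.41 ± 0.19) were the nearest to the threshold in limma, at adjusted p = 0.206 and 0.288.

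Receptors, partners and inhibitors of the proteins included 1 gene that fell. Timp2, an inhibitor of matrix metalloproteinases, was at 13.95 to 17.4 TPM in Foxp3DTR mice, 29.1 to 36.3 TPM in WT mice after MI and 25.0 to 42.4 TPM after sham surgery. It fell by 1.22 ± 0.20 against WT MI (limma, adjusted p = 0.0296) and by 1.18 ± 0.20 against sham (adjusted p = 0.0462, limma). Tlr4, through which calprotectin signals, was at 90.0 to 134 TPM in Foxp3DTR mice and 46.6 to 65.0 TPM in WT mice after MI (0.88 ± 0.25, limma, adjusted p = 0.108). Of the other matrix metalloproteinases 5 of 17 were tested. Mmp14, the membrane-type collagenase, was at 5.71 to 9.10 TPM in Foxp3DTR mice, 1.44 to 2.95 TPM in WT mice after MI and 0.930 to 2.12 TPM after sham surgery. It rose against sham by 1.60 ± 0.26 (limma, adjusted p = 0.0392), whereas against WT MI it differed by 1.15 ± 0.26 (limma, adjusted p = 0.0613). Mmp28 differed by -0.60 ± 0.42 between the MI groups (limma, adjusted p = 0.498).

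Among resistin-like, cathelicidin-like, lipocalin and transferrin relatives, Trf was the 1 of 8 that could be tested. This gene of serum transferrin, the relative of lactoferrin that carries iron in plasma, had the opposite sign to Ltf. It was at 40.3 to 60.2 TPM in Foxp3DTR mice, 67.6 to 119 TPM in WT mice after MI and 104 to 151 TPM after sham surgery. Trf fell by 1.18 ± 0.18 against WT MI (limma, adjusted p = 0.0246) and by 1.54 ± 0.18 against sham (adjusted p = 0.0155, limma). Cytokine receptors of myeloid growth, 10 tested, and Ly6C-high monocyte identity genes, 15 tested, had none past the threshold. Il17ra (-0.59 ± 0.12), Il6ra (-0.45 ± 0.15), Vcan (0.68 ± 0.23) and Csf1r (-0.49 ± 0.17) had the lowest p in these lists (limma, adjusted p = 0.0516, 0.165, 0.164 and 0.175). Over all 99 related genes tested, 1 rose and 2 fell between Foxp3DTR and WT mice after MI, which is 1.01% and 2.02% beside 0.688% and 0.433% of all genes. Against sham, 2 rose and 2 fell, and between WT MI and sham 0 of 99 passed in limma, with 7 at an unadjusted p under 0.05. Mmp25, which met the filter only through the Foxp3DTR libraries, rose against sham by 1.77 ± 0.33 (limma, adjusted p = 0.0498). Without WT MI library 2, WT MI library 3, Foxp3DTR library 2 or Foxp3DTR library 3, 0 of the 99 passed between the MI groups, and without Foxp3DTR library 4 it was 1. Without sham library 2 or sham library 3 it was 10 and 9. Against sham, 0 passed without sham library 1 or Foxp3DTR library 3, 15 without sham library 3, and 1 without sham library 2, WT MI library 2 or Foxp3DTR library 1, 2 or 4.

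None of the 5 chromosomal neighbours that could be tested passed the threshold in limma. Nme6 and Cdc25a, on either side of Camp, differed by 0.31 ± 0.33 and 0.68 ± 0.24 between Foxp3DTR and WT mice after MI (limma, adjusted p = 0.662 and 0.184). Ptpn23 and Klhl18 beside Ngp differed by -0.07 ± 0.19 and -0.14 ± 0.12 (limma, adjusted p = 0.884 and 0.591). Beside Ltf, Ccrl2 differed by 0.09 ± 0.43 (limma, adjusted p = 0.931), and Rtp3 was listed at 0 in all libraries.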

How the data were processed

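RNA of splenic Ly6C-high monocytes from 10 libraries in 3 groups was analysed, grouped by the sample labels. The authors mapped trimmed reads of 50 bp to the mouse genome mm10 with STAR 2.5 after cutadapt 1.1 and CASAVA 1.4, as the submitters' notes list them, and quantified genes with StringTie 1.3.0. The tables they deposited give coverage (a signal, the mean read depth), FPKM and TPM per gene and library. TPM sums to 1000000 per library, so that abundant RNAs move all others. They hold no counts, so the study's DESeq2 test was not used.

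TPM was summed per symbol and scaled by median of ratios. Genes reaching 1 TPM in 3 libraries were fitted as log2(TPM + 1) with limma 3.58.1 (R 4.3.3), using the means of all 3 groups, a variance trend, two-sided tests and Benjamini-Hochberg adjustment. Without scaling, the median gene moved by 0.22 (Foxp3DTR MI against WT MI), -0.17 (WT MI against sham) and 0.05 (Foxp3DTR MI against sham). Reads behind a value were approximated as coverage times transcript length (GENCODE M21) over 50. Depth came from coverage over FPKM, constant within 1% for 84.9 to 85.2% of entries, and no counting interval is given. When the fit was tested on simulated data, 98% of genes changed by 2 on the log2 scale were recovered for Foxp3DTR MI against WT MI. Of 210 calls in that simulation, 12 were of unchanged genes. The changed genes were drawn only from genes of higher mean level. The share recovered therefore does not carry over to genes near 0 in a group, such as Camp, Ltf, Mmp9 and Retnlg in WT MI.

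The genes, 10 lists of related genes and 10 marker lists were chosen with earlier results of these data known. Named are the 10 genes, related genes past the threshold or the 2 of lowest p in a list, a few fixed genes (Cebpe, Csf3r, Cxcr2, Ly6g, Mpo, Elane, Tlr4, S100a4 and S100a6), the 8 genes most alike and the chromosomal neighbours. Same-numbered libraries did not deviate together (correlations from -0.19 to 0.189). Alternatives changed the scaling (no scaling, quantile, FPKM), the pseudocount (0.1 or 5), the filter (none or 5 TPM), the libraries (2 groups only, or 1 left out) and the fit (robust, untrended, array weights or replicate block).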

Additional observations from a re-analysis of the deposited data

Results flagged for a closer look

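In the group of 4 Foxp3DTR libraries, 3 of the 10 genes had a library far from the others by Dixon's test. All 3 were in Foxp3DTR library 2. Mmp8 was lowest there at 192 TPM, against 276 to 288 TPM in the other Foxp3DTR libraries. Mmp9 was highest there at 3.50 TPM, the others being at 0.785 to 1.07 TPM, and Retnlg was highest at 32.3 TPM, against 5.41 to 9.86 TPM. Chance flags about 1 in 20 groups, and 13 measures were examined in the Foxp3DTR group. Groups of 3 were not examined.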

How the results depend on the processing

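Between Foxp3DTR and WT mice after MI, members past the threshold numbered 3. They were 6 without scaling and with only the 2 groups, 5 at a pseudocount of 0.1 and with array weights, 1 with no filter and 0 to 6 with a library left out. Related genes past it numbered 3, against 12 without scaling, 7 with quantile normalization, 5 at a pseudocount of 5, 1 with no filter, 13 with only the 2 groups, 10 with array weights and 0 to 10 with a library left out. The members' median of 3.37 moved to 2.46 with FPKM and to 2.00 at a pseudocount of 5, and that of WT MI against sham from -1.68 to -2.77 at a pseudocount of 0.1. With FPKM, Mmp9 did not enter the fit, so that median is not over the same genes. Against sham, the 4 related genes called in Foxp3DTR mice were 1 at a pseudocount of 0.1, with no filter and with the replicate block, and 2 with the filter at 5 TPM, only the 2 groups and no variance trend. They were 0 to 15 with a library left out, while the members called were 0 to 5 and their median 0.58 to 2.44. The cause of these shifts was not tested.

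Signs changed for Mmp9 in Foxp3DTR MI against sham (0.04 to -0.03 at a pseudocount of 5 and with array weights, -0.36 to 0.18 with a library left out) and for Retnlg in the same contrast (-0.78 to 1.18). For WT MI against sham they changed, with a library left out, for Lcn2 (-0.87 to 0.86), S100a8 (-1.54 to 0.07) and Mmp8 (-0.34 to 0.19). Under the replicate block, 4 members were called between the MI groups, and over all genes 68 higher and 13 lower against 89 and 56. The labels do not say whether same-numbered libraries belong together. The other members' differences kept their sign under all alternatives run. Libraries of 20 to 50 pg of RNA, 3 or 4 per group, and the few reads behind Camp, Ltf, Mmp9 and Retnlg in WT mice after MI limit these values.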
